A study of Mus musculus with 4 samples.

Results

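The enzymes of amino acid breakdown and the urea cycle were followed in mouse liver after macrophage depletion on 2 diets. The group is a list of 47 genes drawn up by function, from the aminotransferases and the urea cycle to the routes of single amino acids. For 42 of the 47 members a probe set with a single gene symbol was found, and the same 42 were analysed among 8650 genes of 18194 on the array. Gls2, Sds, Sdsl, Gcat and Amt had no such probe set in the annotation table used and were not analysed here.

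Liver RNA of male C57BL/6J mice was hybridised to 4 one-colour Affymetrix arrays, each carrying 1 pool. The high-fat clodronate pool held 10 mice, the high-fat PBS pool 10, the low-fat clodronate pool 8 and the low-fat PBS pool 8. All 36 mice were wild type and 8 to 12 weeks old at the start, and they ate a purified diet with 45 or 10% of energy as fat (palm oil in place of lard) for 20 weeks. In the final week they received 2 intraperitoneal injections of liposomes loaded with clodronate, which kill the phagocytes that take them up, or of phosphate-buffered saline (PBS). The saline pools received no empty liposomes, so the liposome, its drug and the loss of macrophages cannot be told apart as sources of a difference. With 1 pool per group the spread between mice was not measured.

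The liver is the main site where surplus amino acids are taken apart. Aminotransferases move their nitrogen onto glutamate and aspartate, the urea cycle turns that nitrogen and free ammonia into urea, and the carbon skeletons enter glucose and ketone synthesis or the citric acid cycle. Many of these enzymes are known to be induced by fasting, glucagon, glucocorticoids and protein intake, and most are made almost only by hepatocytes, the urea cycle mainly by those around the portal vein.

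Values are log2 GCRMA signals, and a difference is a log2 value of 1 pool minus that of another, with values below 4 set to 4. Array medians lay between 2.73 and 2.79, and 33.5% to 34.5% of probe sets reached 4. The labels were checked by the Kupffer cell markers, genes of the resident liver macrophage. All 12 fell with clodronate (limma, Benjamini-Hochberg adjusted), 7 of them also without the signal-dependent prior, and their summed linear signal was 1402 in the high-fat clodronate pool and 7502 in the high-fat PBS pool. On the low-fat diet the sum was 1521 with clodronate and 8019 with PBS. Of 11 analysed hepatocyte markers 0 passed that test for clodronate or diet, with 1 at an unadjusted p under 0.05 for clodronate and 0 for diet. Albumin (Alb) read 14.50 and 14.54 in the high-fat clodronate and PBS pools and 14.51 and 14.52 in the low-fat clodronate and PBS pools. In whole liver fewer cells of a type and less RNA per cell cannot be told apart.

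All 42 members read at least 4 on every array, and few differed by much. None differed by 1.5-fold or more in any of the 4 comparisons. With clodronate against PBS, 0.636% of all genes were at least 1.5-fold higher and 2.98% at least 1.5-fold lower on the high-fat diet, and 1.75% and 1.63% on the low-fat diet. With the high-fat against the low-fat diet, 1.69% were higher and 4.79% lower in clodronate-treated livers, and 2.15% and 1.47% in PBS-treated livers. Read against those shares, a count of 0 among 42 genes lies near the background. Member differences lay within 0.25 log2 units of 0 for 39 of 42 members with clodronate on the high-fat diet and for 40 of 42 on the low-fat diet. For diet, 35 lay within that range in clodronate-treated livers and 31 in PBS-treated livers. The corresponding shares of all genes were 78.1%, 78.3%, 67.8% and 75.5%. Most members are bright, so the 35 with a mean of at least 10 were also set against the 1293 genes of that brightness. For clodronate 97.1% of bright members lay within 0.25 on the high-fat and 94.3% on the low-fat diet, against 96.4% and 94.7% of bright genes. For diet the shares were 91.4% of bright members with clodronate and 80.0% with PBS, against 86.6% and 88.3% of bright genes.

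**Figure D1:**
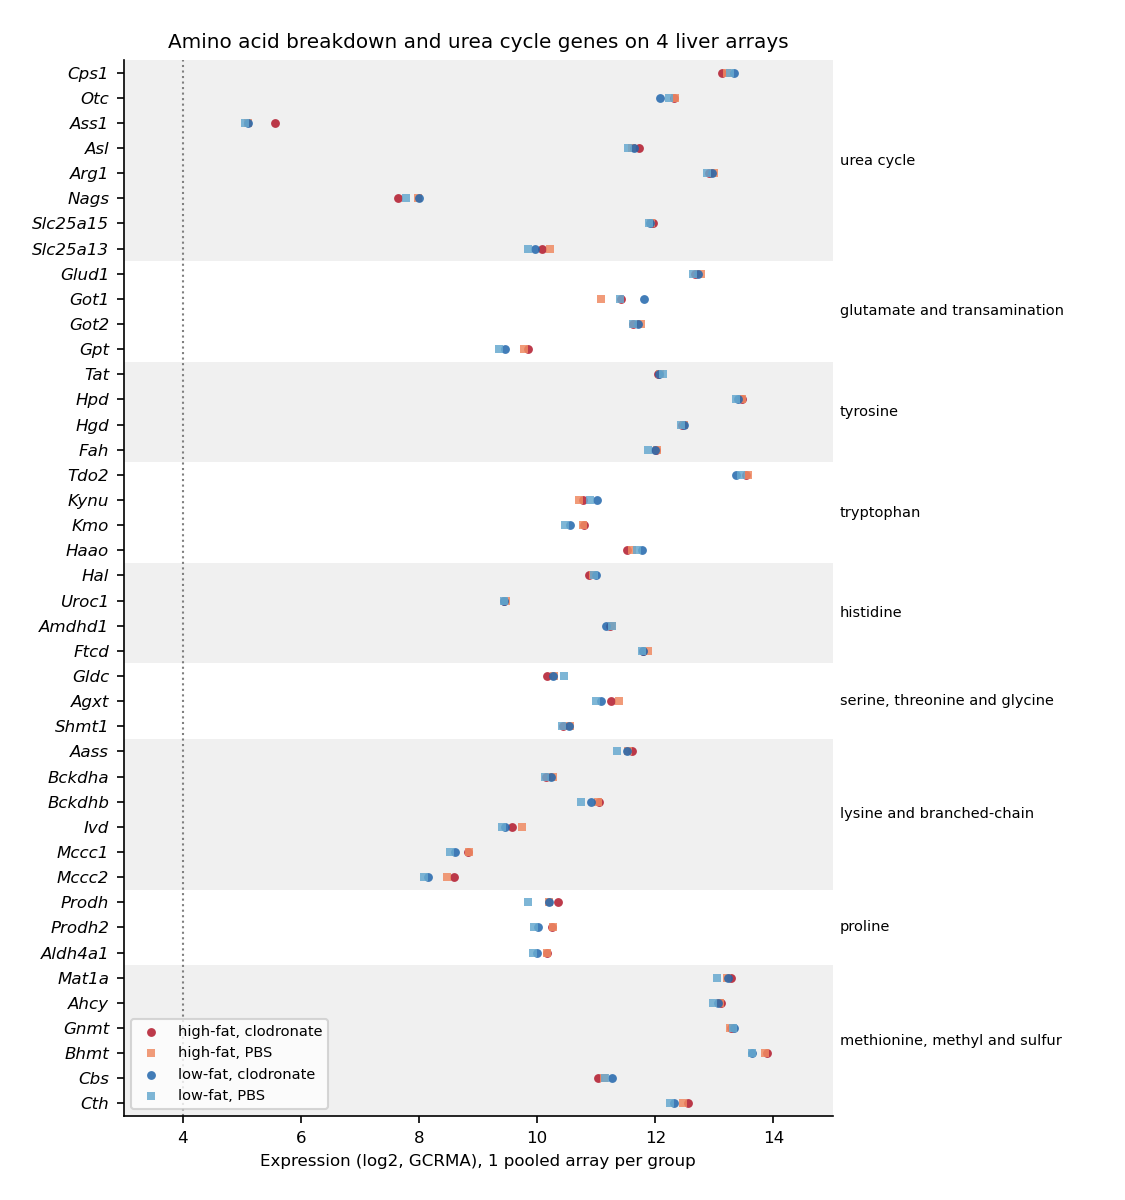
The log2 GCRMA signal of each analysed member is drawn for the 4 pooled arrays, with members grouped by role. Across all 4 points of a gene the widest span is 0.72, for Got1. In the 4 comparisons the widest difference is 0.46, for Ass1 with clodronate against PBS on the high-fat diet.

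Both factors were tested in limma over all 8650 genes with a model in which injection and diet add up, which leaves 1 residual degree of freedom from the arrays. Clodronate raised 10 genes, 0.116% of those tested, and lowered 84, or 0.971%, at a Benjamini-Hochberg adjusted p of 0.05. Among the members 1 rose, Got1, and 0 fell. At an unadjusted p of 0.05, 3 members were higher and 0 lower with clodronate, against 1.61% and 3.13% of all genes. The high-fat diet raised 75 genes, 0.867%, and lowered 71, 0.821%. Of the members 0 rose with the high-fat diet and 1 fell, again Got1. At an unadjusted p of 0.05, 15 members were higher and 3 lower on the high-fat diet, against 5.56% and 7.63% of all genes. Standard errors of the members lay between 0.05 and 0.20 with a median of 0.07. The 95% limma intervals stayed within 1.5-fold for 41 of 42 members for clodronate, the exception being Ass1, and for 39 of 42 for diet, with Ass1, Gpt and Mccc2 outside. With 1 array per group the residual is the gap between the clodronate differences on each diet, drawn toward a prior that varies with signal. These errors and p-values therefore measure the departure from additive effects, and a real interaction counts as noise in them. They do not measure the spread between replicate arrays or between mice.

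Got1, the cytosolic aspartate aminotransferase that swaps an amino group between aspartate and glutamate, was the member that passed the test. It read 11.42 in the high-fat clodronate pool, 11.08 in the high-fat PBS pool, 11.80 in the low-fat clodronate pool and 11.41 in the low-fat PBS pool. Clodronate-treated pools were the higher of each pair, and the lower of them lay just above the higher PBS pool, while the high-fat pools were the lower of each diet pair and overlapped the low-fat ones. Clodronate raised Got1 by 0.37 log2 units (SE 0.07, 95% interval 0.22 to 0.52), or 1.29-fold (limma, Benjamini-Hochberg adjusted p = 0.0335), with 0.34 on the high-fat and 0.39 on the low-fat diet. The high-fat diet lowered it by 1.28-fold, a log2 difference of -0.35 (SE 0.07, 95% interval -0.50 to -0.20, limma with Benjamini-Hochberg adjusted p = 0.0356), with -0.38 in clodronate-treated and -0.33 in PBS-treated livers. The clodronate call was lost in 5 and the diet call in 7 of 10 alternative settings. One that ended both was a limma prior not allowed to vary with signal, with adjusted p of 0.867 for clodronate and 0.427 for diet. With that prior limma called 0 genes for diet, and for clodronate 0 rose and 39, or 0.451%, fell.

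The promoter of Got1 is shown because it alone passed the test, and those of Bhmt and Agxt because they passed the diet test after centring. Gpt, the other member to do so, is not shown. They run from 250 bases before to 50 after the RefSeq start in GRCm38.p6, in the direction of transcription. Got1 lies at chr19:43524556-43524855 on the minus strand, and its capitals mark a match to TGATGNAA, the C/EBP-ATF element bound by the amino acid response factor ATF4, from base -102 to -95 before the start. Bhmt lies at chr13:93637709-93638008 on the minus strand and held no match to any motif searched. Agxt lies at chr1:93134990-93135289 on the plus strand, and its capitals mark a glucocorticoid receptor half-site, AGAACA read on the opposite strand, from base -129 to -124.
Got1: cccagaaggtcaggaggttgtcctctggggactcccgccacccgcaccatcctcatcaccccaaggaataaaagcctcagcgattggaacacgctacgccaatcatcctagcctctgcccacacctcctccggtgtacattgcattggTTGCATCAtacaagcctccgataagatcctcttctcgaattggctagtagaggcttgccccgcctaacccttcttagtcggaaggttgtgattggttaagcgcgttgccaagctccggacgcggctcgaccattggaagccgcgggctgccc
Bhmt: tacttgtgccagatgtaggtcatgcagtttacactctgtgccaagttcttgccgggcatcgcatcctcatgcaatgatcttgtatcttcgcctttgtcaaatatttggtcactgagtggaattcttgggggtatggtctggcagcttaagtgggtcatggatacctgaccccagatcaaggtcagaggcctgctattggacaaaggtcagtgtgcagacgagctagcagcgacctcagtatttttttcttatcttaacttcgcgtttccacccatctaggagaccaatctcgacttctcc
Agxt: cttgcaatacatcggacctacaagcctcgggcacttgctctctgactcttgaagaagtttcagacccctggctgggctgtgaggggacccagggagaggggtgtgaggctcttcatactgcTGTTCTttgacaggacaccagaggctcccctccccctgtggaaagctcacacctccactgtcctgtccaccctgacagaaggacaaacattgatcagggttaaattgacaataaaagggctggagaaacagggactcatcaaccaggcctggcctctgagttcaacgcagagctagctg

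RefSeq gave 39 promoters for 37 members, and 6 motifs of factors known to act on these genes were searched in them on both strands. The ATF4 element TGATGNAA was in 1 of the 39, that of Got1, and in 3.97% of 32851 promoters of the same length. The C/EBP motif TTGCNNAA was in 4, those of Aass, Hal, Hgd and Prodh2, and in 10.8% of all promoters. The glucocorticoid half-site AGAACA was in 5, those of Agxt, Bckdhb, Gcat, Haao and Kmo, and in 19.0% of all. The cyclic AMP element TGACGTCA, the D-box TTANGTAA and the HNF4 motif CAAAGTCCA had 0 matches in the 39, against 1.79%, 2.32% and 0.475% of all promoters. A match describes letters in these windows and not a bound site.

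In the urea cycle, Cps1, Otc, Asl and Arg1 differed little between pools, while Ass1 and Nags spread more widely, with differences from -0.36 to 0.46. Cps1, which makes carbamoyl phosphate from ammonia in mitochondria, read 13.13 and 13.21 in the high-fat clodronate and PBS pools and 13.34 and 13.27 in the low-fat clodronate and PBS pools. Otc, which joins carbamoyl phosphate to ornithine, read 12.31 and 12.33 with clodronate and PBS on the high-fat diet and 12.08 and 12.24 on the low-fat diet. High-fat pools were the lower for Cps1 and the higher for Otc without overlap, with log2 differences of -0.13 (SE 0.06, limma adjusted p = 0.391) and 0.16 (SE 0.06, adjusted p = 0.333, both Benjamini-Hochberg). Asl, which releases arginine and fumarate, read 11.73 and 11.61 with clodronate and PBS on the high-fat diet and 11.63 and 11.54 on the low-fat diet. Arg1, which splits arginine into urea and ornithine, read 12.91 and 12.99 with clodronate and PBS on the high-fat diet and 12.96 and 12.87 on the low-fat diet. The clodronate pools of Asl lay just above its PBS pools and those of Arg1 overlapped, neither gene differed by more than 0.12 in any comparison, and the 95% interval of Arg1 for clodronate was -0.14 to 0.14.

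Ass1, which condenses citrulline with aspartate, was the least certain member. Its probe set read 5.56 in the high-fat clodronate pool, 5.10 in the high-fat PBS pool, 5.11 in the low-fat clodronate pool and 5.05 in the low-fat PBS pool. The high-fat clodronate pool was the high one and the other 3 lay within 0.06 of each other. The clodronate difference averaged 0.26 log2 units (SE 0.20, 95% interval -0.20 to 0.72, limma with Benjamini-Hochberg adjusted p = 1). The signal lay near the filter value of 4, so this probe set carried the weakest measurement in the cycle. It lay far below Cps1, Otc, Asl and Arg1, which read at least 11.54 on every array. Whether this probe set detects the main liver transcript of Ass1 was not tested, so its values do not give the level of the gene.

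Nags, which makes the N-acetylglutamate that switches Cps1 on, had clodronate differences of opposite sign on the 2 diets. It read 7.64 in the high-fat clodronate pool and 7.99 in the high-fat PBS pool, and 7.99 in the low-fat clodronate pool and 7.79 in the low-fat PBS pool. The clodronate difference was -0.35 on the high-fat diet and 0.21 on the low-fat diet, and the gap between these, -0.56, was the widest of the 42 members. It could not be tested with 1 pool per group, and an interaction of 1.5-fold or more was seen in 9.06% of all genes and in 0 members. For genes with a mean of at least 10, which include 35 of the 42 members, the share was 0.464%. Among members the median of that gap was -0.08 and 31 of 42 lay below 0, against a median of -0.09 and 65.9% of all genes below 0. The mitochondrial carriers were Slc25a15, which exchanges ornithine and citrulline, and Slc25a13, the aspartate-glutamate carrier citrin. The brightest Slc25a15 probe set differed by at most 0.04, with 0.03 and 0.02 for clodronate on the high-fat and low-fat diet. Its other set gave 0.16 and 0.39 there. Slc25a13 read 10.08 and 10.21 with clodronate and PBS on the high-fat diet and 9.96 and 9.84 on the low-fat diet, a diet difference of 0.25 (SE 0.09, limma with Benjamini-Hochberg adjusted p = 0.286). The high-fat pools lay above the low-fat pools.

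Beside Got1, the enzymes that handle glutamate nitrogen were Glud1 (glutamate dehydrogenase), Got2 (the mitochondrial aspartate aminotransferase) and Gpt (alanine aminotransferase, which turns alanine into pyruvate). Gpt read 9.84 and 9.77 with clodronate and PBS on the high-fat diet and 9.46 and 9.35 on the low-fat diet. Both high-fat pools lay above both low-fat pools, by 0.39 in clodronate-treated and 0.42 in PBS-treated livers. The mean of 0.41 (SE 0.09, 95% interval 0.21 to 0.60), or 1.32-fold, missed the threshold with a Benjamini-Hochberg adjusted p of 0.0577 in limma. A dimmer Gpt probe set had diet differences of 0.77 in clodronate-treated and at least 0.83 in PBS-treated livers, where the low-fat value lay under 4. Glud1 and Got2 differed by at most 0.13 in each comparison in their brightest probe sets. Another bright Got2 set gave 0.22 for diet with PBS.

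**Figure D2:**
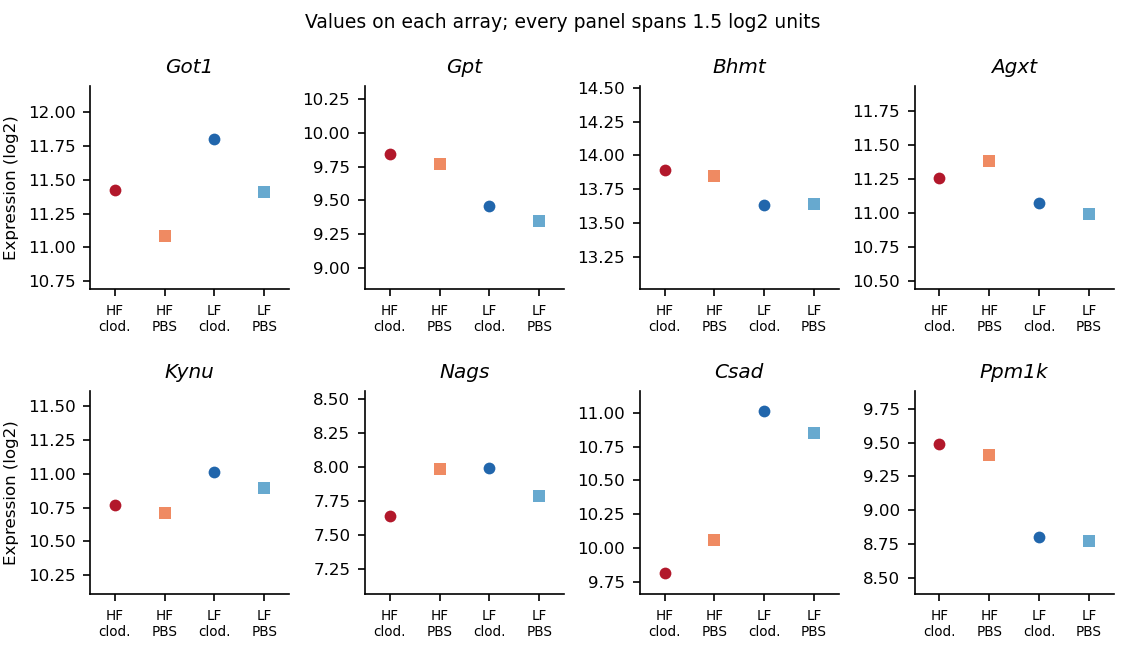
Log2 GCRMA signals of 6 members and of Csad and Ppm1k are drawn for each pooled array, and every panel spans 1.5 log2 units. Got1 stands higher with clodronate on both diets, while Gpt, Bhmt and Ppm1k stand higher, and Csad lower, in both high-fat pools.

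Tyrosine breakdown runs from Tat, the tyrosine aminotransferase, through Hpd and Hgd, the dioxygenases that make and open homogentisate, to Fah, which yields fumarate and acetoacetate. Hpd read 13.48 and 13.47 with clodronate and PBS on the high-fat diet and 13.41 and 13.36 on the low-fat diet. Hgd read 12.45 and 12.48 with clodronate and PBS on the high-fat diet and 12.48 and 12.44 on the low-fat diet. Fah read 12.02 in both high-fat pools, against 11.99 with clodronate and 11.87 with PBS on the low-fat diet. High-fat pools of Hpd and Fah lay above the low-fat pools, those of Hgd overlapped them, and no difference in the 4 genes was above 0.16. Tat, whose clodronate pools lay below the PBS pools, had clodronate differences of -0.03 and -0.06 on the high-fat and low-fat diet.

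Tryptophan breakdown had members on both sides of 0 for diet. Kynu, which splits kynurenine, read 10.77 and 10.71 with clodronate and PBS on the high-fat diet, against 11.01 and 10.89 on the low-fat diet. Haao, which makes the precursor of quinolinate and NAD, read 11.52 and 11.60 with clodronate and PBS on the high-fat diet, against 11.77 and 11.68 on the low-fat diet. For both genes the high-fat pools were the lower without overlap, with log2 differences of -0.21 (SE 0.07, limma adjusted p = 0.249) and -0.17 (adjusted p = 0.348, both Benjamini-Hochberg). Kmo, which hydroxylates kynurenine, read 10.79 and 10.77 with clodronate and PBS on the high-fat diet, against 10.55 and 10.47 on the low-fat diet. Its high-fat pools were the higher, by 0.27 (limma with Benjamini-Hochberg adjusted p = 0.144). Tdo2, the first enzyme of the route, had a diet difference of 0.14 in the brightest probe set, and its other 2 probe sets gave 0.43 and 0.39 in clodronate-treated and 0.31 and 0.26 in PBS-treated livers.

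By its widest difference in the probe sets used, histidine breakdown was the most level route. The tyrosine genes spanned a narrower range for clodronate on the high-fat diet and for diet with clodronate. Hal, the histidine ammonia-lyase, read 10.87 and 10.94 with clodronate and PBS on the high-fat diet and 10.99 and 10.97 on the low-fat diet. Amdhd1, which opens the imidazolone ring, read 11.23 and 11.27 with clodronate and PBS on the high-fat diet and 11.17 and 11.27 on the low-fat diet. Ftcd, which passes the formimino group to folate, read 11.79 and 11.88 with clodronate and PBS on the high-fat diet and 11.79 and 11.77 on the low-fat diet. The high-fat pools of Hal lay just below and those of Ftcd just above the low-fat pools, and those of Amdhd1 overlapped them. With Uroc1, the urocanase, the widest difference of the route was -0.12, for Hal between diets with clodronate. A dim second probe set of Uroc1 had a difference of -0.53 for clodronate on the high-fat diet.

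Of the enzymes of serine and glycine, Agxt, which turns glyoxylate into glycine in peroxisomes and is also an alanine and serine aminotransferase, read 11.26 and 11.39 with clodronate and PBS on the high-fat diet. On the low-fat diet it read 11.08 and 10.99 with clodronate and PBS. The high-fat pools were higher, by 0.18 in clodronate-treated and 0.40 in PBS-treated livers, with a mean of 0.29 (SE 0.08, 95% interval 0.11 to 0.46, limma with Benjamini-Hochberg adjusted p = 0.122). Gldc, the glycine-decarboxylating subunit of the glycine cleavage system, read 10.16 and 10.29 with clodronate and PBS on the high-fat diet and 10.28 and 10.45 on the low-fat diet. Its clodronate pools lay below its PBS pools without overlap, with differences of -0.13 on the high-fat and -0.17 on the low-fat diet (SE of the mean 0.08). Shmt1, the cytosolic serine hydroxymethyltransferase, differed by at most 0.14 in the brightest of its 4 probe sets. That set gave -0.12 for clodronate on the high-fat diet and -0.10 for diet with clodronate. Its other sets had the opposite sign there, with 0.06, 0.08 and 0.05 for the first comparison and 0.12, 0.09 and 0.17 for the other.

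Branched-chain amino acids and lysine are oxidised in mitochondria. Bckdhb, a subunit of the branched-chain keto acid dehydrogenase, read 11.05 and 11.02 with clodronate and PBS on the high-fat diet, against 10.92 and 10.74 on the low-fat diet. Ivd, the isovaleryl-CoA dehydrogenase of leucine breakdown, read 9.58 and 9.75 with clodronate and PBS on the high-fat diet, against 9.45 and 9.41 on the low-fat diet. Mccc2, a subunit of methylcrotonyl-CoA carboxylase in the same route, read 8.59 and 8.48 with clodronate and PBS on the high-fat diet, against 8.15 and 8.09 on the low-fat diet. In all 3 genes the high-fat pools lay above the low-fat pools. The diet difference of Mccc2 was 0.41 log2 units (SE 0.11, 95% interval 0.16 to 0.66), or 1.33-fold, with a Benjamini-Hochberg adjusted p of 0.125 in limma. Over the 6 members of this route, which also hold Aass, Bckdha and Mccc1, the median diet difference was 0.13 in clodronate-treated and 0.30 in PBS-treated livers, with 5 and 6 of 6 above 0.

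Proline enters glutamate through Prodh, the proline dehydrogenase, and Aldh4a1, while Prodh2 oxidises hydroxyproline. Prodh read 10.36 and 10.20 with clodronate and PBS on the high-fat diet and 10.21 and 9.84 on the low-fat diet. The low-fat PBS pool was the low one and the clodronate pools lay just above the PBS pools, and the clodronate difference averaged 0.26 (SE 0.09, 95% interval 0.07 to 0.46, limma with Benjamini-Hochberg adjusted p = 0.603). Prodh2 read 10.26 and 10.27 with clodronate and PBS on the high-fat diet, against 10.01 and 9.95 on the low-fat diet, a diet difference of 0.29 (limma with Benjamini-Hochberg adjusted p = 0.149). All 3 genes had diet differences above 0 in both injection groups and an unadjusted limma p under 0.05, with medians of 0.18 with clodronate and 0.32 with PBS.

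The methionine cycle makes the methyl donor S-adenosylmethionine, and its homocysteine is either remethylated or drained into cysteine. Bhmt, which remethylates homocysteine with betaine, read 13.89 and 13.85 with clodronate and PBS on the high-fat diet, against 13.64 in both low-fat pools. The high-fat pools were higher by 0.23 (SE 0.05, 95% interval 0.12 to 0.35), or 1.17-fold, just short of the threshold (limma with Benjamini-Hochberg adjusted p = 0.0594). Cth, the cystathionine gamma-lyase, read 12.55 and 12.47 with clodronate and PBS on the high-fat diet, against 12.32 and 12.25 on the low-fat diet, a difference of 0.22 (SE 0.06, limma with Benjamini-Hochberg adjusted p = 0.117). Cbs, the cystathionine beta-synthase one step before it, read 11.03 and 11.14 with clodronate and PBS on the high-fat diet and 11.27 and 11.14 on the low-fat diet. The PBS pools of Cbs were level, and with clodronate its diet difference was -0.24. Mat1a, which makes S-adenosylmethionine in hepatocytes, read 13.27 and 13.21 with clodronate and PBS on the high-fat diet and 13.24 and 13.04 on the low-fat diet, with the low-fat PBS pool the low one. Ahcy, which hydrolyses S-adenosylhomocysteine, and Gnmt, which methylates glycine, differed by at most 0.12.

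**Figure D3:**
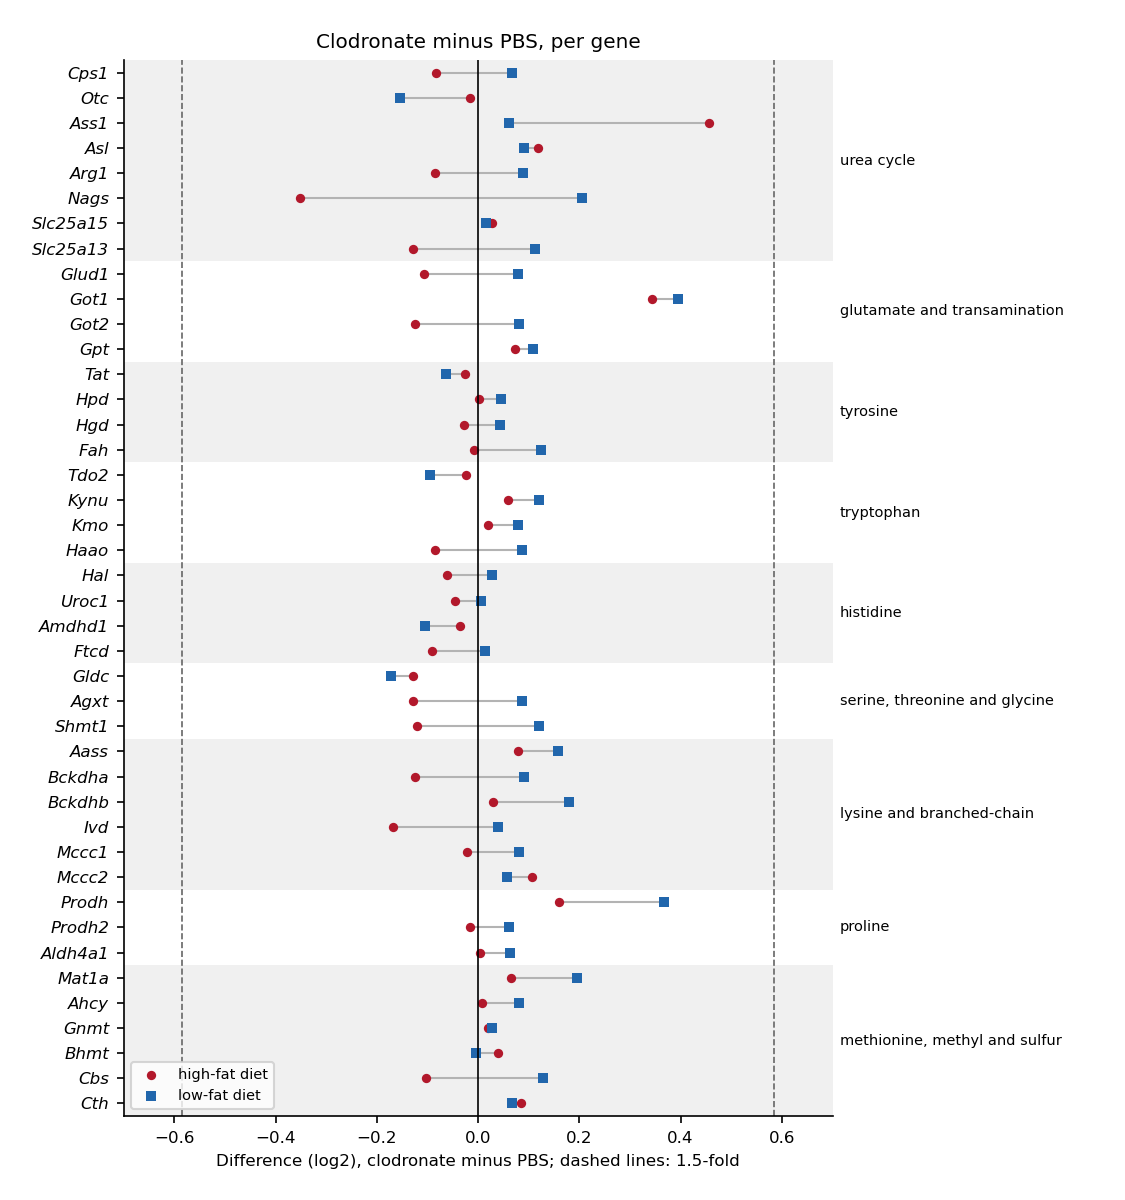
The clodronate minus PBS difference in log2 signal is drawn per member for the high-fat diet (circles) and the low-fat diet (squares), with dashed lines at 1.5-fold. No member passes the lines, Got1 stands to the right on both diets and Nags lies on opposite sides.

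Set against all genes, the members' medians were small. The median clodronate difference was -0.02 on the high-fat and 0.08 on the low-fat diet, against -0.05 and 0.04 over all genes. The median diet difference was 0.04 in clodronate-treated and 0.12 in PBS-treated livers, against -0.08 and 0.00 over all genes. On the high-fat diet 18 members lay above and 24 below 0 for clodronate, against 36.4% of all genes above. The member counts turned to 28 and 14 after centring each array on its median and to 26 and 15 after quantile scaling. On the low-fat diet 36 lay above and 6 below 0, against 59.7% of all genes above. For diet, 25 were above and 17 below 0 in clodronate-treated livers, against 33.1% of all genes above, and 32 and 10 in PBS-treated livers, against 49.5%. In 20 members both high-fat pools lay above both low-fat pools, against 16.4% of all genes, and in 6 both lay below, against 29.5%. Among genes with a mean of at least 10, 16 of 35 members lay above, against 24.6% of bright genes, and 6 below, against 30.4%. Among the 20 were 5 of the 6 lysine and branched-chain genes. For clodronate 5 members did not overlap on the upper side, against 11.3% of all genes, and 3 on the lower side, against 13.2%. Those counts became 1 (Got1) and 1 (Gldc) after centring, against 14.1% and 12.0% of all genes. After quantile scaling they were 4 and 1, against 13.1% and 12.7%.

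The sign of a member's difference held in both comparisons of a factor in more members for diet than for clodronate. For diet it was above 0 in both injection groups for 24 members, against 20.7% of all genes, and below 0 in both for 9, against 35.9%. Among the 35 bright members these counts were 19 and 9, against 28.8% and 36.4% of bright genes. For clodronate it was above 0 on both diets for 17 members, against 20.8% of all genes, and below 0 on both for 5, against 22.9%. Among bright members the counts were 14 and 5 of 35, against 18.9% and 26.1% of bright genes. Few of these were of size. A diet difference of at least 0.2 in both injection groups was seen upward in 7 members, Gpt, Kmo, Mccc1, Mccc2, Prodh2, Bhmt and Cth, against 4.89% of all genes, and downward in 1, Got1, against 7.51%. For clodronate it was upward in 1 member, again Got1, against 2.18% of all genes, and downward in 0, against 3.45%. The 2 comparisons of a factor share no pool.

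**Figure D4:**
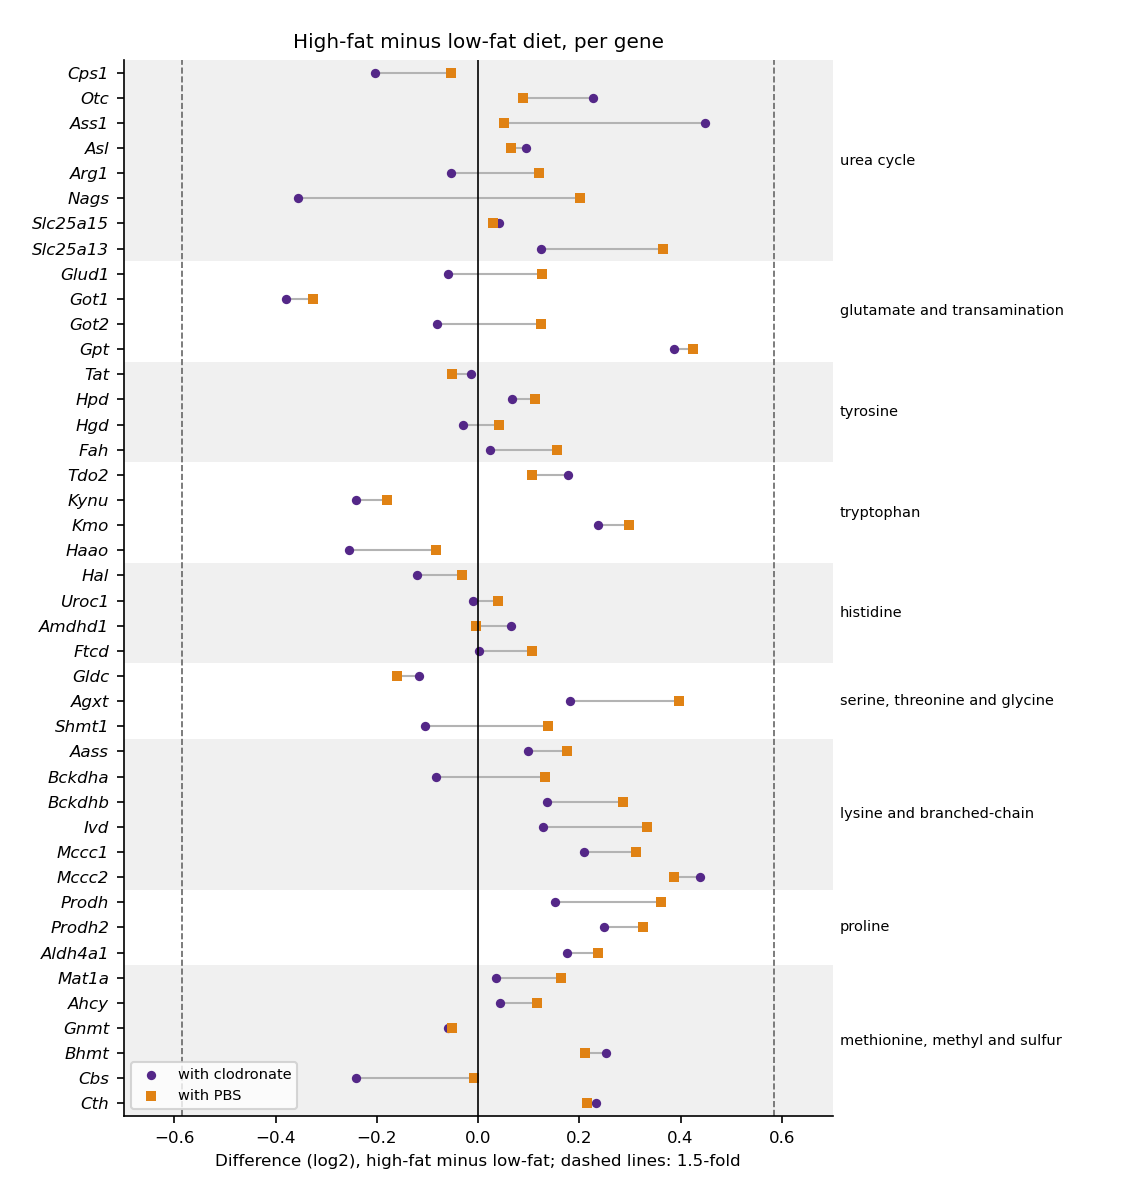
The high-fat minus low-fat difference in log2 signal is drawn per member in clodronate-treated (circles) and PBS-treated livers (squares), with dashed lines at 1.5-fold. Got1 and Kynu lie left of 0 and Gpt, Mccc2, Agxt and Bhmt right of it in both injection groups, all inside the lines.

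**Figure D5:**
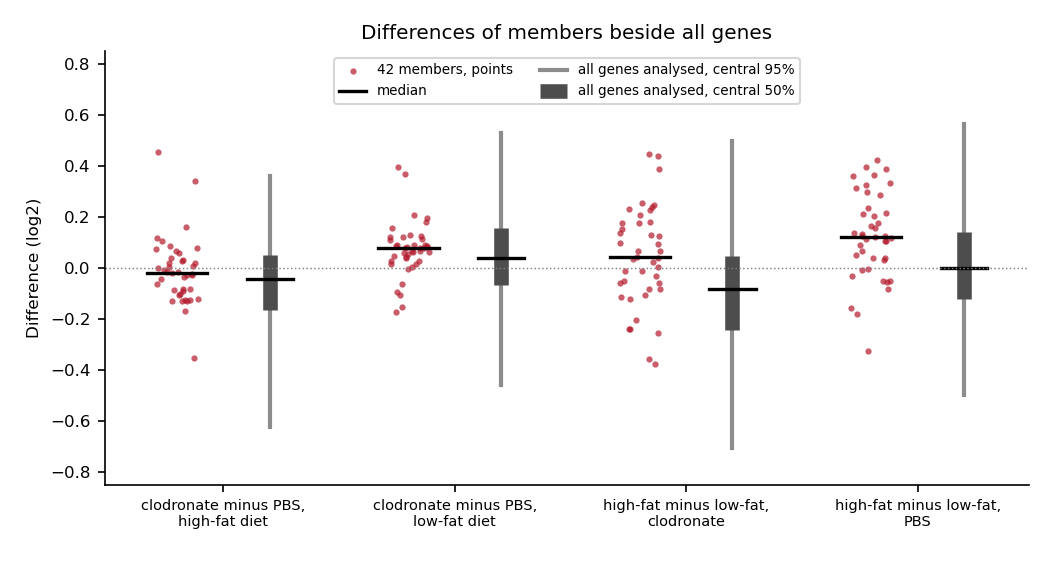
Member differences are drawn as points with their median as a bar, beside the range that holds the central 95% (thin line) and 50% (thick bar) of all 8650 genes, for the 4 comparisons. The member points lie inside or near the central 95% of all genes, with medians between -0.02 and 0.12.

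A wider list of 105 genes of amino acid handling, from transporters to further steps of each route, placed the members beside their pathway. Of these, 73 were analysed and 19 read below 4 on every array. For clodronate 0 passed the limma test, with 2 higher and 0 lower at an unadjusted p under 0.05, against 1.61% and 3.13% of all genes. For diet 3 rose and 1 fell, against 0.867% and 0.821% of all genes. At an unadjusted limma p under 0.05, 20 were higher and 5 lower for diet, against 5.56% and 7.63%. Ppm1k, the phosphatase that activates the branched-chain dehydrogenase, read 9.49 and 9.41 with clodronate and PBS on the high-fat diet, against 8.80 and 8.78 on the low-fat diet. It rose by 0.66 (SE 0.10), or 1.58-fold, on the high-fat diet (limma with Benjamini-Hochberg adjusted p = 0.00943), with both high-fat pools above both low-fat pools. Hsd17b10, which acts in isoleucine breakdown, rose by 0.51 (SE 0.08, limma with Benjamini-Hochberg adjusted p = 0.0113). Csad, which makes the taurine precursor hypotaurine from cysteine sulfinate, read 9.81 and 10.06 with clodronate and PBS on the high-fat diet, against 11.01 and 10.85 on the low-fat diet. The high-fat pools were the low ones, and the difference was -0.99 (SE 0.10), or 1.99-fold (limma with Benjamini-Hochberg adjusted p = 0.00121). Mpst, a sulfurtransferase acting on the cysteine product mercaptopyruvate, rose by 0.65 (SE 0.13, limma with Benjamini-Hochberg adjusted p = 0.0462). Without the signal-dependent prior none of these 4 calls held, nor did those of the regulators named next.

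Of 23 analysed regulators and hormone-response genes 0 passed the limma test for clodronate. At an unadjusted limma p under 0.05, 2 were higher and 1 lower with clodronate, against 1.61% and 3.13% of all genes. For diet 3 rose and 1 fell, against 0.867% and 0.821% of all genes. Unadjusted, 8 were higher and 6 lower for diet, against 5.56% and 7.63%. Dbp and Tef are clock-controlled factors that bind the D-box. Dbp read 10.85 and 10.69 with clodronate and PBS on the high-fat diet, against 9.63 and 9.27 on the low-fat diet. Its rise of 1.32 (SE 0.09), or 2.5-fold, had a limma Benjamini-Hochberg adjusted p of 0.000161, and Tef rose by 0.83 (SE 0.12, adjusted p = 0.00761). G6pc, the glucose-6-phosphatase that releases glucose in fasting, read 10.43 and 10.61 with clodronate and PBS on the high-fat diet, against 11.36 and 11.50 on the low-fat diet. It fell with a difference of -0.91 (SE 0.07), or 1.88-fold (limma with Benjamini-Hochberg adjusted p = 0.000294), and Cebpb, a C/EBP factor, rose by 0.39 (SE 0.08, adjusted p = 0.0445). Fgf21, a liver hormone of fasting, did not pass the test, and read 3.79 and 3.58 with clodronate and PBS on the high-fat diet, against 4.59 and 5.14 on the low-fat diet. Its high-fat pools were both under 4, with differences of -0.59 with clodronate and -1.14 with PBS that are bounds (limma with Benjamini-Hochberg adjusted p = 0.0518). Dbp, Tef, G6pc and Fgf21 separated the diet pools in the same comparison as the members, and their part in the member differences was not tested. Other genes of this list did not share 1 direction. Pck1 overlapped between the diets with a difference of 0.03, while Klf15 had 0.32 and Ppargc1a -0.77, and none of these passed the test.

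Probe sets of one member did not always give the same sign. Of the analysed members 27 had 1 probe set and 15 several, and in the 13 with at least 2 measured probe sets the widest spread of a difference was 0.06 to 0.48 with a median of 0.25. Sets of opposite sign were found in 7 of the 13 for clodronate on the high-fat diet and in 4 on the low-fat diet, and for diet in 5 with clodronate and in 3 with PBS. That spread was as large as most member differences. The widest were in the dim second set of Uroc1 and in a dim set of Got2, which gave 0.28 for clodronate on the high-fat and -0.31 on the low-fat diet. The members known to be periportal, 9 of 11 analysed, had medians of -0.06 and 0.05 for clodronate on the high-fat and low-fat diet and of -0.01 and 0.05 for diet with clodronate and with PBS, and 0 of the 9 passed the limma test for either factor, or had an unadjusted p under 0.05.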

How the data were processed

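Liver RNA pools of 4 groups were measured on 1 Affymetrix array each. The submitters' processing notes name GCRMA 2.24.1 as the tool behind the deposited log2 signals, and the log2 scale was checked against the range of the values. GCRMA subtracts a background modelled on probe sequence and scales the arrays to each other, which acts against a shift common to most genes, and low signals are compressed. A small shift was still present, as the median over all analysed genes was -0.08 for diet with clodronate. Genes were named from GEO's platform annotation, which gave 1 symbol to 34958 of 45101 probe sets, several to 932 and none to 9211.

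Groups were taken from the labels. A gene was its probe set with 1 symbol and the highest mean, kept where it reached 4 on at least 1 array, which left 8650 genes. Differences of single arrays have no test, and values below 4 were set to 4 in them. The deposited values entered limma 3.58.1 in R 4.3.3 with injection and diet as additive terms, eBayes with a mean-dependent prior, and Benjamini-Hochberg adjustment over all 8650 genes at 0.05. One array per group leaves 1 residual degree of freedom and none for an interaction. The limma script was tested on simulated data, where the mean-dependent prior let through more false calls than the threshold allows, and the prior without it fewer, while recovering far fewer of the changed genes. The number of arrays limits the precision.

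The members and lists were chosen with earlier results of these data known. Members were named with values on every array where they passed the limma test, were among Cps1, Otc, Ass1, Asl and Arg1, or had the largest difference of their route in a comparison, or where probe sets of a gene disagreed. Other pathway genes and regulators were named where limma called them or a comparison reached 2-fold. Pck1, Klf15, Ppargc1a, Foxo1 and Ddo met neither condition and were named outside this rule. Alternatives changed the value floor, the filter, the scaling, the probe set rule, the limma prior and the fold.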

Additional observations from a re-analysis of the deposited data

Results flagged for a closer look

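The clodronate difference of Nags was -0.35 on the high-fat diet and 0.21 on the low-fat diet. Its diet difference was -0.36 in clodronate-treated livers and 0.20 in PBS-treated livers. Foxo1, Hhex and Onecut1, transcription factors among the regulators listed, and Ddo, the D-aspartate oxidase of the wider pathway list, also had clodronate differences of opposite sign on the 2 diets. Foxo1 and Ddo were named after their values were seen. Foxo1 had clodronate differences of -0.41 on the high-fat and 0.36 on the low-fat diet, and diet differences of -0.39 in clodronate-treated and 0.38 in PBS-treated livers. Ddo had clodronate differences of 0.49 on the high-fat and -0.29 on the low-fat diet. Hhex read 9.12 and 9.76 in the high-fat clodronate and PBS pools and 10.43 and 9.83 in the low-fat clodronate and PBS pools, with differences of -0.64 and 0.60. Onecut1 read 5.28 and 5.63 in the high-fat clodronate and PBS pools and 6.94 and 5.67 in the low-fat clodronate and PBS pools, with differences of -0.35 and 1.28. For Hhex and Onecut1 the low-fat clodronate pool was the high one and the high-fat clodronate pool the low one. Among the analysed members, wider pathway genes and regulators these 5 were the ones whose 2 differences had opposite signs and each reached 0.2, and the gap between them was not tested. A sample far from its group could not be looked for with 1 array per group.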

How the results depend on the processing

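Of 108 counts and medians recomputed under alternatives, 90 stayed within 1.5 times of a count or within 0.1 log2 units of a median, which lets a small median change sign, and 18 moved. The member median for clodronate on the high-fat diet, -0.02, turned to 0.05 with centring, 0.02 with quantile scaling and 0.01 with the mean of probe sets. Quantile scaling put 1 member, Ass1, past 1.5-fold higher for diet with clodronate, and centring each array on its median gave a member median of 0.14 there. The mean of probe sets put 1 member, Gpt, past 1.5-fold higher for diet with PBS. The clodronate call of Got1 was lost, leaving 0 members that rose, without the mean-dependent prior, with values below 4 set to 4 in the model, with genes at 4 or more on all arrays, with no filter, and with every probe set as a feature, an alternative chosen after seeing the data. Its diet call was lost, leaving 0 members that fell, under those same 5 settings and with centring and the mean of probe sets. Members that rose with the high-fat diet numbered 2 with the robust prior (Bhmt and Gpt), 3 with centring (Agxt, Bhmt and Gpt) and 1 with quantile scaling (Bhmt). The difference of Got1 stayed between 0.37 and 0.39 for clodronate, with limma Benjamini-Hochberg adjusted p from 0.0239 to 0.867, and between -0.35 and -0.30 for diet, with adjusted p from 0.0250 to 0.427. The cause was not tested. Members with both high-fat pools above both low-fat pools numbered 30 with centring and 23 with quantile scaling, against 20, while the share of all genes was 23.7% and 22.3%, against 16.4%. Over all genes the diet comparison with clodronate gave 146 higher and 414 lower by 1.5-fold, against 229 and 254 with centring and 245 and 214 with quantile scaling. For clodronate on the high-fat diet the split was 55 and 258, against 81 and 189 with centring and 94 and 172 with quantile scaling, and on the low-fat diet 151 and 141, against 122 and 158 and 99 and 169.

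No paired analysis was possible because each group is 1 array and the labels give no replicate numbers. Leaving out an array leaves no residual degree of freedom, so no such value was computed. Pools of 8 or 10 mice hide the spread between mice.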
